A study of Mus musculus with 44 samples.

Results

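Germ cells of the juvenile mouse testis were compared with germ cells of the fetal mouse testis, which are the dividing phases on either side of fetal arrest. The comparison used 8 of the 44 arrays of the series, chosen by their titles. The juvenile cells came from males at 8 and 10 days post partum (dpp), with 2 arrays at each age. The fetal cells came from males at embryonic day (E) 12.5 and 13.5, with 2 arrays at each day. All were taken by FACS, and the labels call all of them primordial germ cells (PGC), the postnatal ones included. The sorting marker, the mouse strain and the number of animals behind an array are not given in the sources used here. RNA was amplified, labelled with biotin and hybridized to MouseRef-8 v2 BeadChips, glass arrays on which beads carry probes for known mouse genes. The design calls the arrays biological or technical duplicates, so the p-values below measure a spread between arrays and perhaps not between animals. That spread is taken within 23 groups of like arrays over all 44 arrays, not over the 8 compared alone. It leaves out the spread between the ages of a phase. Male germ cells at E16.5, E17.5 and E18.5 (2 arrays each), which are not dividing, were set beside both phases.

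In the mouse, PGC reach the gonad, go on dividing for a few days and, in a testis, stop in mitotic arrest. After birth they resume division as spermatogonia, of which some renew themselves as stem cells and others differentiate under retinoic acid towards meiosis. Fetal PGC express much of the pluripotency network of embryonic stem cells and have lost most DNA methylation, which is laid down again in males during arrest.

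A level is given here as log2 normalized intensity, which is the brightness of a gene's brightest probe after background correction and quantile normalization over all 44 arrays. Juvenile levels stand in the order 8 dpp replicate 1, 8 dpp replicate 2, 10 dpp replicate 1, 10 dpp replicate 2. Fetal levels stand in the order E12.5 replicate 1, E12.5 replicate 2, E13.5 replicate 1, E13.5 replicate 2. A log2 difference is the mean of both juvenile ages minus the mean of both fetal days, with its standard error (SE) from a limma fit. A rise or fall by a number is a log2 difference. A gene was called where the Benjamini-Hochberg adjusted p was under 0.05 and the change was at least 2-fold. A probe was detected where its detection p was under 0.01. Where no array of a phase detected a gene, its fold is a lower bound against the dimmest detected signal of those arrays, written as "at least". Juvenile arrays were brighter before normalization, with an upper quartile intensity of 454.7 to 581.1, against 99.4 to 170.2 on the fetal arrays. They detected 42.1% to 44.8% of probes, against 36.2% to 41.2% on the fetal arrays, so brightness and phase cannot be told apart here.

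Of 10935 genes tested, 2706 were called (24.7%), of which 1557 were higher in juvenile cells (14.2%) and 1149 were lower (10.5%). The change was at least 8-fold for 70 higher and 74 lower genes. The split between higher and lower genes depended on the scaling. Of called genes 57.5% were higher, against 46.5% under cyclic loess and 95.0% when arrays were scaled to a common median, which moved the median difference of all genes to 0.92, against 0.04 in the main scaling. Under median scaling 7 of the 126 called genes named here turned sign, and 0 did when taken relative to the median of all genes. The 7 were Cdc25a (0.18), Cdkn1c (0.20), Hormad2 (0.04), Mbd3 (0.14), Mnd1 (0.00), Nanos3 (0.30) and Spo11 (0.13), so the falls of these genes below hold relative to the other genes. Pearson correlations across genes were 0.985 to 0.992 between 8 and 10 dpp arrays and 0.955 to 0.958 between E12.5 and E13.5 arrays, against 0.871 to 0.898 between juvenile and fetal arrays. No gene was called between 10 and 8 dpp by limma, and cyclic loess gave 56 calls. An unadjusted limma p under 0.05 was found for 470 of the 10935 genes, a smaller share than the 0.05 that no difference would give. Between E13.5 and E12.5, 781 genes were called (7.14%), 452 of them higher (4.13%) and 329 lower (3.01%) at E13.5. Under median scaling that split was 2192 higher and 26 lower. On 2866 genes (26.2%) all juvenile arrays lay above all fetal arrays, and on 2220 (20.3%) all lay below.

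**Figure D1:**
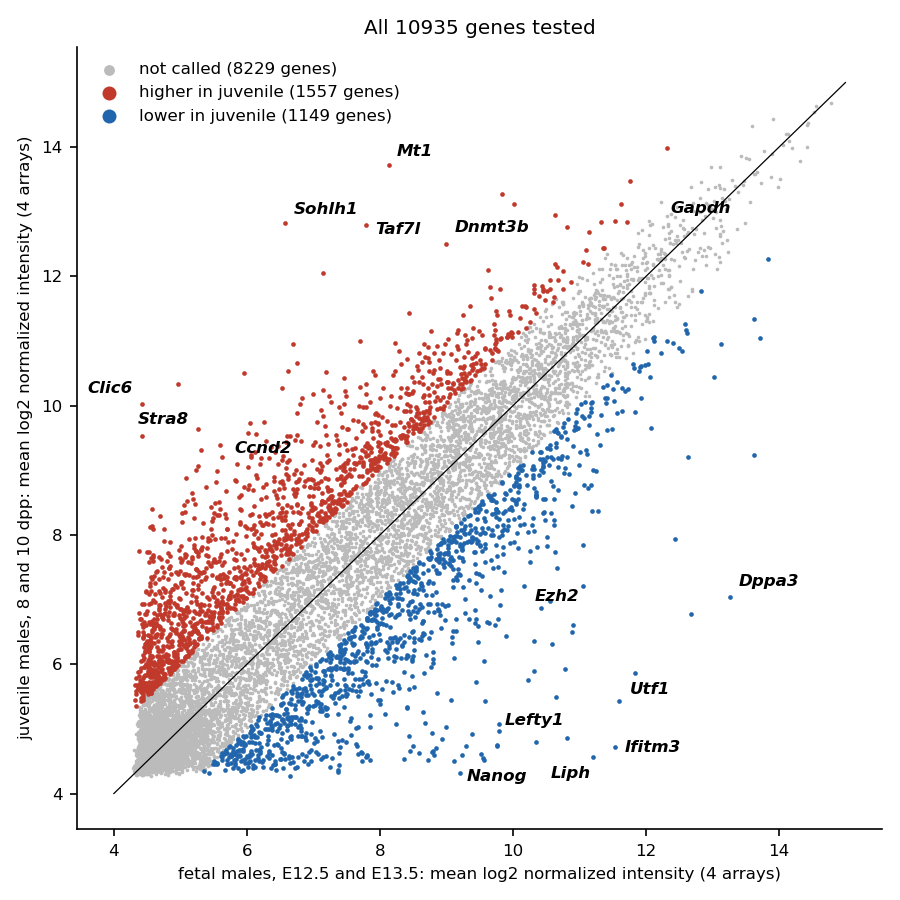
Mean log2 normalized intensity of each of 10935 genes on the 4 juvenile arrays (vertical axis) against the 4 fetal arrays (horizontal axis), with the line of equal levels. The 1557 genes higher in juvenile cells (red) lie above the uncalled genes and the 1149 lower genes (blue) below them; Gapdh lies on the line and Sohlh1, Mt1 and Dppa3 lie far from it.

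Germ cell markers were detected in both phases. Of 11 measured markers of germ cell identity, 10 were detected on at least 1 juvenile array and 10 on at least 1 fetal array, and Mael was detected on none of the 8. Of the 11, 4 rose and 4 fell, beside 14.2% and 10.5% of all genes. Their summed linear level was 17450 to 20465 on the juvenile arrays, against 21617 to 30898 on the fetal arrays. Those that fell included the pluripotency gene Pou5f1, described below, and Dnd1 (mean 10.64 in juvenile cells, against 12.03 in fetal cells). The sum is therefore no measure of germ cell content alone. Dazl, an RNA-binding protein of germ cells, had levels of 12.64, 12.81, 12.41 and 12.86 in juvenile cells, against 11.82, 11.98, 11.80 and 11.91 in fetal cells. The arrays did not overlap. The log2 difference was 0.80 ± 0.14 (adjusted p = 4.15e-05), which fell short of 2-fold. The germ cell helicase Ddx4 had levels of 7.22, 7.27, 6.83 and 6.43 in juvenile cells, against 8.62, 8.93, 8.66 and 9.24 in fetal cells on its brightest probe, whose log2 difference was -1.92, while a probe detected on all 8 arrays gave 1.25, so its direction depended on the probe. Its remaining probe was detected on none of the 8. In bulk samples such as these, fewer cells of a type and less RNA per cell cannot be told apart.

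Pluripotency genes were lower in juvenile cells almost throughout. Of 20 measured, 15 fell and 2 rose, with a median log2 difference of -2.57, against 10.5% of all genes that fell and a median of 0.04. Nanog, a homeobox factor of the pluripotent state, had levels of 4.61, 4.73, 4.32 and 4.53 in juvenile cells, against 9.41, 9.60, 9.58 and 9.63 in fetal cells. No juvenile array detected it, and Nanog was at least 19.7-fold lower in juvenile cells (adjusted p = 3.06e-14). Its partner Sox2, an HMG-box factor, had levels of 4.72, 4.53, 4.84 and 4.73 in juvenile cells, against 9.17, 9.11, 8.48 and 8.59 in fetal cells, again undetected on each juvenile array and at least 12-fold lower in juvenile cells (adjusted p = 7.61e-13). Both were at the bottom of the measured range at 8 and 10 dpp and well above it on each fetal array.

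Pou5f1, which encodes Oct4, was lower in juvenile cells but remained detected. It had levels of 9.24, 9.99, 9.48 and 9.94 in juvenile cells, against 11.89, 12.08, 12.14 and 12.18 in fetal cells, with a log2 difference of -2.41 ± 0.19 (adjusted p = 8.17e-11). Utf1, a chromatin factor of stem cells that also marks some spermatogonia, had levels of 5.09, 5.58, 5.56 and 5.52 in juvenile cells, against 11.60, 11.64, 11.74 and 11.41 in fetal cells, with a log2 difference of -6.16 ± 0.18 (adjusted p = 3.05e-19). Utf1 was among the 15 largest falls, and its arrested mean of 10.07 lay nearer the fetal level. The ligand Gdf3 was undetected on the juvenile arrays and at least 19.7-fold lower in juvenile cells. The same held for L1td1, an RNA-binding protein of stem cells, which was at least 17.5-fold lower in juvenile cells. Dppa5a, another RNA-binding protein of the set, fell by 4.40 on the log2 scale to a juvenile mean of 9.24 ± 0.12, against 13.63 ± 0.16 in fetal cells (SD, n = 4 each). The members that rose, named after their values were seen, were Klf4 (log2 difference 2.29), a zinc finger factor with roles outside pluripotency, and Nr6a1 (1.43), a nuclear receptor of germ cells. Sall4, Lin28a and Tbx3 were measured and not called, at log2 differences of 0.06, -0.27 and 0.47. Other probes gave 0.53 and 0.84 for Klf4, neither of them called, and -1.43 and -1.45 for Sall4 and 1.52 for Lin28a.

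**Figure D2:**
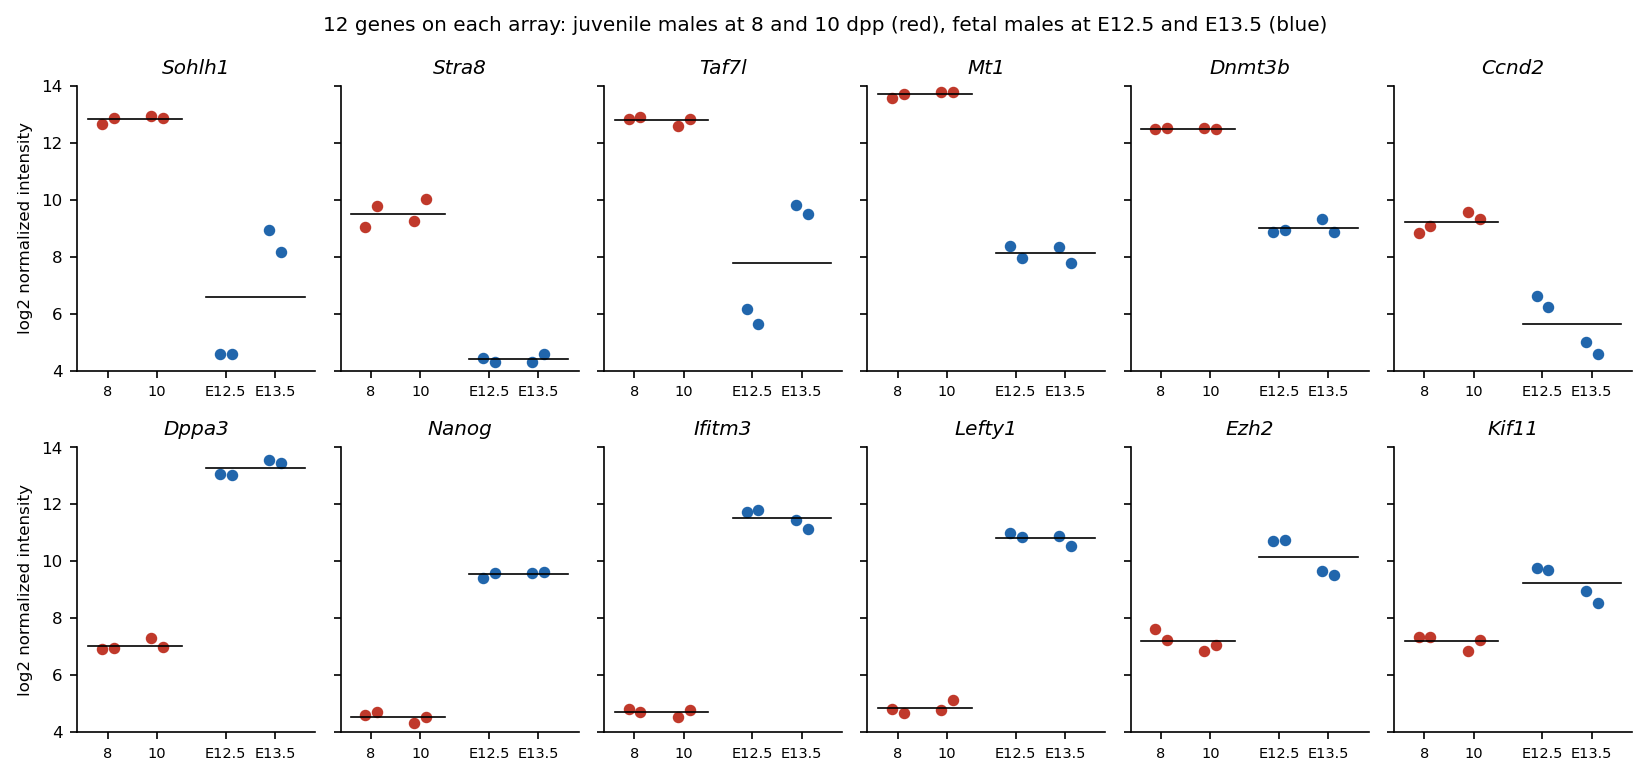
Log2 normalized intensity (vertical axes) of 12 genes on each array, juvenile arrays at 8 and 10 dpp in red on the left of each panel and fetal arrays at E12.5 and E13.5 in blue on the right, with the mean of each phase as a line. In the upper row the juvenile arrays lie above the fetal arrays and in the lower row below them; Sohlh1 and Taf7l differ between the fetal days.

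Most early germ cell genes were lower in juvenile cells. Of 11 members measured, 10 were lower in juvenile cells, none was higher and Tex19.1 alone was not called (log2 difference 0.30), and the median was -1.43. Of all genes, 10.5% were lower and 14.2% higher. Dppa3, a maternal-effect protein also called Stella that marks PGC, had levels of 6.93, 6.96, 7.31 and 6.99 in juvenile cells, against 13.07, 13.02, 13.55 and 13.44 in fetal cells. No juvenile array came near a fetal one, and the log2 difference was -6.23 ± 0.14 (adjusted p = 1.14e-20). Ifitm3, a membrane protein known as a surface marker of early PGC, had levels of 4.81, 4.73, 4.54 and 4.77 in juvenile cells, against 11.73, 11.82, 11.44 and 11.14 in fetal cells. No juvenile array detected it, and it was at least 77.7-fold lower in juvenile cells (adjusted p = 4.33e-18).

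The neighbouring family members moved with Ifitm3. Ifitm2 fell by 5.91 on the log2 scale, with a juvenile mean of 6.77 ± 0.24, against 12.68 ± 0.14 in fetal cells (SD, n = 4 each). Ifitm1 was undetected on the juvenile arrays and at least 11.5-fold lower in juvenile cells. The transcription factors that specify PGC were lower as well. Tfap2c, an AP-2 factor, had levels of 7.22, 7.54, 7.86 and 7.35 in juvenile cells, against 10.34, 10.25, 9.52 and 8.67 in fetal cells and a log2 difference of -2.21 ± 0.32 (adjusted p = 2.22e-06). Prdm14, a PR-domain repressor of the somatic programme, was detected on no juvenile array and on 3 of 4 fetal arrays, and was at least 1.53-fold lower in juvenile cells (adjusted p = 1.10e-05). Among RNA-binding proteins that protect germ cells, Dnd1 had a log2 difference of -1.39 and Nanos3 of -1.26. Dnd1 levels did not overlap between the phases, whereas Nanos3 levels did.

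Ligands, inhibitors and a nuclear partner of Nodal signalling, which is active for a short time in fetal male germ cells, were lower in juvenile cells. Of 9 measured genes of this pathway and of fetal male identity, 5 fell and none rose, with a median of -3.03. Of all genes, 10.5% fell and 14.2% rose. Lefty1, a secreted inhibitor and target of Nodal, had levels of 4.81, 4.69, 4.78 and 5.14 in juvenile cells, against 10.99, 10.86, 10.88 and 10.55 in fetal cells. It was undetected on the juvenile arrays and at least 47.3-fold lower in juvenile cells (adjusted p = 1.14e-20). Lefty2, its paralogue, had levels of 5.42, 5.44, 5.67 and 5.44 in juvenile cells, against 11.20, 11.22, 10.34 and 9.85 in fetal cells and a log2 difference of -5.16 ± 0.18 (adjusted p = 7.81e-18). The ligand Nodal was undetected on the juvenile arrays and at least 6.04-fold lower in juvenile cells, and Foxh1, the DNA-binding partner of Smad proteins in this pathway, was undetected on the juvenile arrays and at least 4.31-fold lower in juvenile cells. Smad2, Smad3 and Acvr2b, which carry signals of other ligands too, were not called, with log2 differences of -0.55, 0.24 and 0.28.

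The RNA-binding protein Nanos2, which promotes male fate in the fetus and maintains stem cells after birth, had levels of 6.73, 7.21, 6.30 and 6.60 in juvenile cells, against 8.18, 7.98, 11.46 and 11.49 in fetal cells. Juvenile levels lay below both fetal days, nearer to E12.5 than to E13.5, and the log2 difference was -3.07 ± 0.35 (adjusted p = 6.21e-08). Dnmt3l, the cofactor of new DNA methylation, had levels of 6.69, 6.60, 7.44 and 6.75 in juvenile cells, against 4.43, 5.07, 9.70 and 8.86 in fetal cells, so that juvenile levels lay between the fetal days. It was not called (log2 difference -0.14, adjusted p = 7.40e-01), and its arrested mean was 13.41, above every juvenile and fetal array.

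Genes of differentiating spermatogonia were higher in juvenile cells. Of 9 measured, 7 rose and none fell, beside 14.2% and 10.5% of all genes, with a median of 2.47. Sohlh1, a basic helix-loop-helix factor needed for spermatogonial differentiation, had levels of 12.66, 12.86, 12.95 and 12.87 in juvenile cells, against 4.60, 4.59, 8.93 and 8.19 in fetal cells. It was the largest rise, at a log2 difference of 6.26 ± 0.16 (adjusted p = 4.01e-20). The fetal days differed, since neither E12.5 array detected it and both E13.5 arrays did. Its mean in arrested cells was 12.79, inside the juvenile range.

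Stra8, the retinoic acid target that precedes meiosis, behaved otherwise in arrest. It had levels of 9.04, 9.79, 9.25 and 10.02 in juvenile cells, against 4.45, 4.31, 4.30 and 4.61 in fetal cells, and no fetal array detected it, so that it was at least 14.1-fold higher in juvenile cells (adjusted p = 1.18e-16). Its arrested mean of 4.47 was at the fetal level. Crabp1, which binds retinoic acid in the cytoplasm, had levels of 9.67, 9.32, 9.82 and 9.76 in juvenile cells, against 5.99, 4.39, 5.25 and 5.42 in fetal cells and a log2 difference of 4.38 ± 0.37 (adjusted p = 2.45e-10). Cyclin D2 (Ccnd2), a marker of the step to differentiating spermatogonia, had levels of 8.85, 9.08, 9.58 and 9.33 in juvenile cells, against 6.64, 6.26, 5.03 and 4.59 in fetal cells and a log2 difference of 3.58 ± 0.47 (adjusted p = 4.02e-07). On each juvenile array these genes were above all 4 fetal arrays. Of the fetal arrays, 1 detected Crabp1 and 2 detected Ccnd2. In arrested cells the mean of Ccnd2 was 8.26, nearer the juvenile level, and its E18.5 arrays (9.82 and 9.75) lay above every juvenile array. Juvenile minus arrested cells was not called for Ccnd2 (log2 difference 0.95). The arrested mean of Crabp1 was 7.13, nearer the fetal level. Tex101, a surface glycoprotein of germ cells, rose by 2.47, and Dmrt1, a doublesex-related factor that holds back meiosis in spermatogonia, was undetected on the fetal arrays and at least 1.36-fold higher in juvenile cells.

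Genes linked to undifferentiated spermatogonia split in both directions. Of 24 measured, 5 rose and 7 fell, beside 14.2% and 10.5% of all genes. The 5 that rose were Pou3f1 (log2 difference 3.18), Neurog3 (3.03), Egr4 (2.19), Foxc2, which no fetal array detected and which was at least 1.41-fold higher in juvenile cells, and Upp1 (1.26). Egr4, Foxc2 and Upp1 were named after their values were seen. Against E13.5 alone the log2 difference of Upp1 was -0.62. Egr4 had levels of 11.40, 11.81, 11.53 and 11.43 in juvenile cells, against 7.34, 7.93, 10.82 and 11.30 in fetal cells. Its E13.5 levels were thus near the juvenile ones. Neurog3, a helix-loop-helix factor of progenitor spermatogonia, had levels of 8.30, 8.98, 9.18 and 8.95 in juvenile cells, against 4.49, 4.62, 7.12 and 7.05 in fetal cells, with the E12.5 arrays undetected and lowest. Those that fell included Lhx1, a LIM-homeobox factor downstream of GDNF, which was undetected on the juvenile arrays and at least 22.7-fold lower in juvenile cells. Etv5, an ETS factor of the same pathway, had a mean level of 6.10 ± 0.23 in juvenile cells, against 9.11 ± 0.43 in fetal cells (SD, n = 4 each) and a log2 difference of -3.01 ± 0.24 (adjusted p = 1.08e-10). The GDNF receptor parts Gfra1 and Ret were not called, with log2 differences of 0.58 (adjusted p = 1.35e-03) and 0.77 (adjusted p = 2.13e-02), nor was the stem cell regulator Id4 at 0.65 (adjusted p = 1.62e-02). Gfra1 was detected on 2 juvenile arrays and on no fetal array.

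Germline genes whose promoters are known to be silenced by DNA methylation in other cells were higher in part. Of 17 measured, 9 rose (14.2% of all genes did) and Ddx4 fell on the probe named above, with a median of 1.12. Taf7l, a germ cell form of a subunit of the basal transcription factor TFIID, had levels of 12.85, 12.91, 12.59 and 12.83 in juvenile cells, against 6.16, 5.65, 9.81 and 9.52 in fetal cells. The log2 difference was 5.01 ± 0.13 (adjusted p = 4.01e-20), and E13.5 arrays lay between E12.5 and juvenile arrays. Dpep3, a membrane-bound dipeptidase of the testis, had levels of 8.64, 8.40, 8.87 and 8.66 in juvenile cells, against 4.44, 4.46, 6.24 and 5.57 in fetal cells and a log2 difference of 3.47 ± 0.16 (adjusted p = 2.55e-15). Dpep3 was detected on 1 of 4 fetal arrays. Tex11, an X-linked meiotic protein, rose by 2.05. Its arrested mean of 5.90 lay below both phases.

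Of the piRNA pathway, which silences transposons with small RNAs, 4 of 16 measured genes rose and 1 (Ddx4) fell. Of all genes, 14.2% rose and 10.5% fell. Henmt1, the methyltransferase that modifies the ends of piRNAs, had levels of 7.30, 7.41, 7.47 and 7.31 in juvenile cells, against 4.41, 4.37, 6.61 and 4.88 in fetal cells and a log2 difference of 2.31 ± 0.24 (adjusted p = 1.15e-08). It was detected on 1 of 4 fetal arrays. The Tudor protein Tdrd1 rose by 1.71, the helicase Mov10l1 by 1.67 and the PIWI protein Piwil2 by 1.15.

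X-linked genes were frequent among the largest rises. The X chromosome held 6 of the 15 largest rises and 1 of the 15 largest falls, against 3.48% of genes tested. Over all 381 X-linked genes, 20.5% rose and 15.5% fell, against 14% and 10.3% of autosomal genes. In a list of cancer-testis and Rhox genes, 17 of the 18 measured were on the X, and 12 of the 18 rose and 3 fell, with a median of 2.04. Tktl1, a transketolase-like enzyme, had levels of 10.77, 10.73, 10.39 and 10.76 in juvenile cells, against 5.61, 5.82, 7.99 and 7.61 in fetal cells and a log2 difference of 3.91 ± 0.16 (adjusted p = 4.10e-16). Nxf2, an RNA export factor of germ cells, had levels of 9.35, 9.61, 9.35 and 9.27 in juvenile cells, against 4.46, 4.30, 6.73 and 6.90 in fetal cells and a log2 difference of 3.80 ± 0.22 (adjusted p = 2.86e-13). In both the E12.5 arrays were lowest, the E13.5 arrays were intermediate and the juvenile arrays were highest. The 3 that fell were homeobox genes of the Rhox cluster. Rhox5 had levels of 4.95, 5.82, 6.14 and 6.52 in juvenile cells, against 11.96, 12.18, 11.54 and 11.66 in fetal cells and a log2 difference of -5.98 ± 0.16 (adjusted p = 4.99e-20). Rhox9 fell by 4.15 on the log2 scale, and Rhox6, named after its values were seen, was undetected on the juvenile arrays and at least 3.18-fold lower in juvenile cells. On the Y chromosome, Usp9y, a deubiquitinase gene, had levels of 9.69, 9.46, 9.49 and 9.62 in juvenile cells, against 4.80, 4.35, 7.98 and 7.43 in fetal cells and a log2 difference of 3.42 ± 0.17 (adjusted p = 1.71e-14), and the demethylase gene Kdm5d rose by 1.17.

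Promoters of 3 genes of these groups are shown for the E-box CACGTG, to which Myc, Max and related helix-loop-helix proteins bind and through which a Max-containing Polycomb complex is known to repress germline genes in somatic and stem cells. They are RefSeq windows of 300 bases (GRCm38.p6) that end shortly after the start of transcription, all on the minus strand and written 5′ to 3′, with the E-box in capitals. Their positions are chr2:25847199-25847498 for Sohlh1, chrX:134964705-134965004 for Nxf2 and chrX:134476441-134476740 for Taf7l.
Sohlh1: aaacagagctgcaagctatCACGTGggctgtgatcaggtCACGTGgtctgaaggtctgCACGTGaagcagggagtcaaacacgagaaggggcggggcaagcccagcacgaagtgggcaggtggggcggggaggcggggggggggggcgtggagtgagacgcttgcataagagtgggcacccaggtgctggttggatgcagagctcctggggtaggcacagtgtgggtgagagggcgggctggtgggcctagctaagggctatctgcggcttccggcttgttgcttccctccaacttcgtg
Nxf2: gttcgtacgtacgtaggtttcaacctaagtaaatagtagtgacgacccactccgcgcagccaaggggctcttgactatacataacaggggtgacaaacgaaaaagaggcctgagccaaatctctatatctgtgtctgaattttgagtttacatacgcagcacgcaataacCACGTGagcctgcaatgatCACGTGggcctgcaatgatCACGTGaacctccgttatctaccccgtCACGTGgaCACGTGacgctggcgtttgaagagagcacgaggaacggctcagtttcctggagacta
Taf7l: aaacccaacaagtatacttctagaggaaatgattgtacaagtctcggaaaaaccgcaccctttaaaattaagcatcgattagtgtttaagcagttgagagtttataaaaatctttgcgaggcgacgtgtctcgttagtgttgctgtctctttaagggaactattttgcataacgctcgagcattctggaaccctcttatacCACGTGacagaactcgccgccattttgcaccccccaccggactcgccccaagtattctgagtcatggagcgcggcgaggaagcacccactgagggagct
The Sohlh1 window holds 3 E-boxes, the Nxf2 window 5 and the Taf7l window 1. These 3 genes were picked by hand and all hold the motif, and windows of the other named genes are not shown. They therefore do not tell how common the motif is among genes that rose. The motif, which reads the same on both strands, was found in 7.15% of 32851 promoter windows. Counted by gene, it was in at least 1 window of 11.3% of the 8874 tested genes with a window, of 13.2% of those higher and of 14.2% of those lower in juvenile cells. Among the methylation-silenced germline genes above, 7 of 16 with a window held it, and in the list of cancer-testis and Rhox genes 2 of 14 did (Nxf2 and Taf7l). These matches describe letters in the windows and were not tested as binding sites. Max itself fell on the array, by 1.90 on the log2 scale, and any link of this to the genes above was not tested.

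Meiotic genes rose in part. Of 6 measured genes of the meiotic cohesin, axis and synaptonemal complex, 4 rose and Hormad2 fell (-1.41), with a median of 1.23. Of all genes, 14.2% rose and 10.5% fell. The cohesin Rec8 had levels of 7.72, 8.12, 7.86 and 8.39 in juvenile cells, against 5.86, 6.26, 7.10 and 7.13 in fetal cells and a log2 difference of 1.44 ± 0.24 (adjusted p = 1.42e-05). Syce2, of the central element of the synaptonemal complex, rose by 1.40, Smc1b by 1.36, and Sycp1, which was undetected on the fetal arrays, was at least 1.27-fold higher in juvenile cells. Of 11 recombination genes, 4 rose and 2 fell, beside 14.2% and 10.5% of all genes. Mei1, needed for meiotic double-strand breaks, was undetected on the fetal arrays and at least 2.63-fold higher in juvenile cells. Mnd1, a partner of the meiotic recombinase, had levels of 8.99, 9.31, 9.26 and 9.20 in juvenile cells, against 10.49, 10.60, 10.83 and 10.81 in fetal cells, a log2 difference of -1.49 ± 0.11 (adjusted p = 3.38e-11). The break-forming enzyme gene Spo11, named after its values were seen, fell by 1.45, while a second probe gave -0.40. Of 15 spermatocyte and spermatid genes 7 were detected on none of the 8 arrays, and 3 rose, beside 14.2% of all genes. These were Clgn, Tnp1 and Hspa2, whose second probe gave 0.68 and was not called. Clgn, a chaperone of sperm proteins, had levels of 7.70, 7.49, 7.98 and 7.83 in juvenile cells, against 4.71, 4.91, 5.98 and 5.35 in fetal cells, and its arrested mean of 9.73 was above both phases. It was detected on 1 of 4 fetal arrays.

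On the brightest probe of each gene, mitosis genes were called between the phases about as often as genes at large, and DNA replication genes less often. Of 21 measured mitosis genes, 2 rose and 3 fell, beside 14.2% and 10.5% of all genes, with a median log2 difference of -0.04, against 0.04 over all genes. Of all genes, 37.1% were called between juvenile and arrested cells and 36.5% between fetal and arrested cells. Against arrested cells, 16 of the 21 were higher in juvenile cells (18.5% of all genes were), and 15 were higher in fetal cells (16.5% of all genes). Under other scalings, run here after the values were seen, the counts were lower or higher. Under cyclic loess they were 12 (10.2% of all genes) and 11 (8.31%), and under median scaling 19 (53.1%) and 16 (18.5%), so the shares of all genes depended on the scaling. Both of these comparisons share the 6 arrested arrays. The median level of the list was 9.39 to 9.83 on the juvenile arrays, against 10.11 and 10.17 at E12.5 and 9.41 and 9.40 at E13.5. Of 32 measured DNA replication genes, 27 were not called, 4 rose and 1 fell. Of these, 20 were higher in juvenile and 14 in fetal than in arrested cells. Some division genes not called had another probe that was, and these were named after their values were seen. Such probes gave -1.15 and -1.32 for Mcm4, -1.11 for Lig1, -1.05 for Mcm10, -1.57 and -1.06 for Cdc20 and -1.36 for Birc5. They gave 1.05 for Mcm6 and 1.01 for Prim2. Under median scaling the list medians, taken relative to all genes, were 0.41 for mitosis and 0.72 for replication, against -0.09 and 0.24 in the main scaling. The replication median was 10.18 to 10.30 on the juvenile arrays, against 10.35 and 10.38 at E12.5 and 9.50 and 9.79 at E13.5. Between the fetal days, 2 mitosis and 10 replication genes were called lower at E13.5 and none higher, beside 3.01% and 4.13% of all genes.

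**Figure D3:**
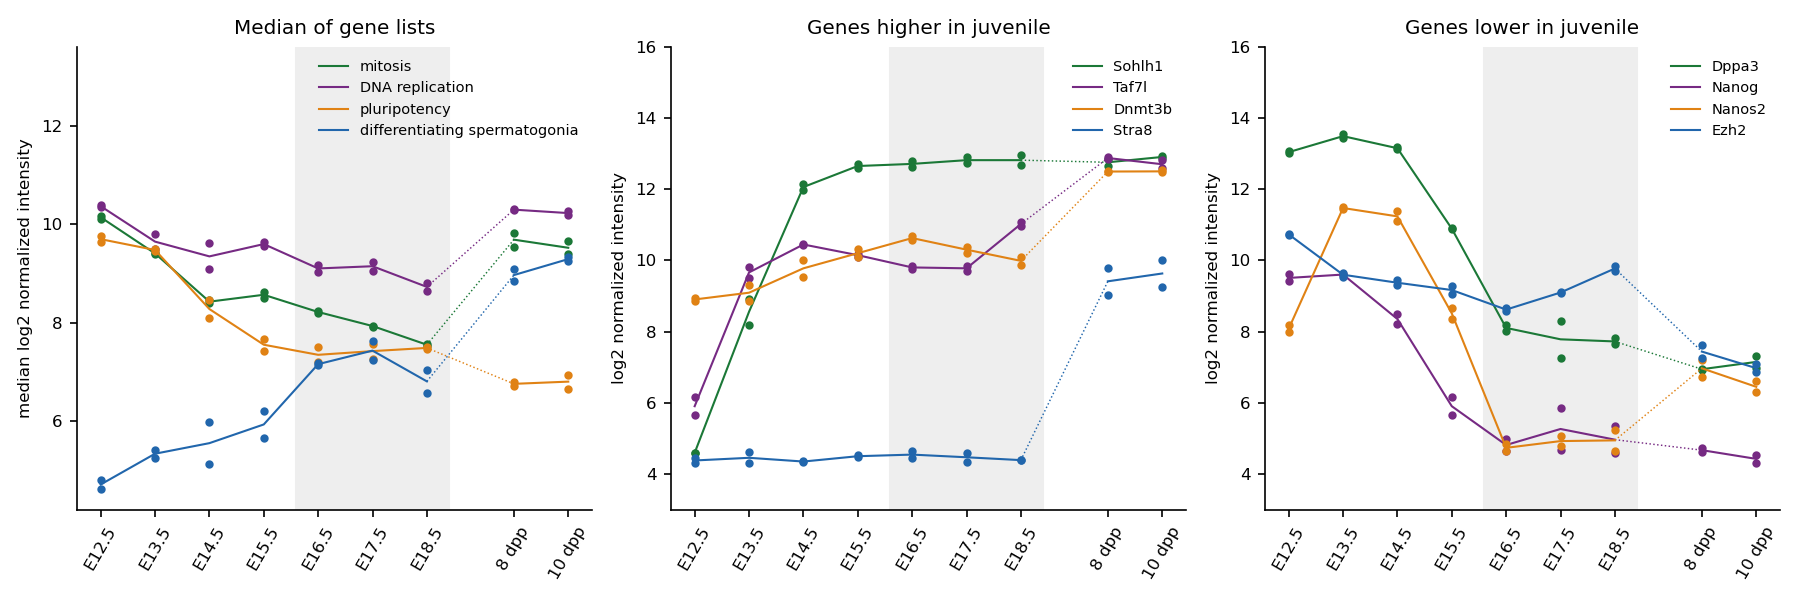
Male germ cells from E12.5 to 10 dpp, with the median log2 normalized intensity of 4 gene lists (left) and the log2 normalized intensity of 4 genes higher (middle) and 4 genes lower (right) in juvenile cells. Points are arrays, lines join means, dotted lines span the days without arrays used here, and grey marks E16.5 to E18.5; the mitosis and replication medians are lowest at E18.5, while Sohlh1 is high from E14.5 onwards and Stra8 is high at 8 and 10 dpp alone.

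Single members did differ. The motor protein Kif11, which separates the spindle poles, had levels of 7.34, 7.35, 6.86 and 7.26 in juvenile cells, against 9.77, 9.70, 8.96 and 8.55 in fetal cells and a log2 difference of -2.04 ± 0.18 (adjusted p = 5.41e-10). Ttk, a kinase of the spindle checkpoint, was undetected on the fetal arrays and at least 1.86-fold higher in juvenile cells. The replication licensing factor Cdc6 had levels of 9.66, 9.57, 9.41 and 9.53 in juvenile cells, against 8.32, 8.18, 6.55 and 6.29 in fetal cells and a log2 difference of 2.21 ± 0.18 (adjusted p = 8.96e-11). The helicase subunit Mcm7 moved the other way, with levels of 8.06, 7.98, 7.56 and 7.99 in juvenile cells, against 10.49, 10.39, 9.47 and 9.68 in fetal cells and a log2 difference of -2.11 ± 0.25 (adjusted p = 1.19e-07). Cyclin A2 (Ccna2), of S phase and mitosis, had a log2 difference of -0.57 and was not called (adjusted p = 2.86e-02), and 1 of the 8 arrays detected it.

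Several G1 cyclins and their partners were called. Of 17 measured, 6 rose and 1 fell, beside 14.2% and 10.5% of all genes, with a median of 0.71. Besides Ccnd2, cyclin D1 (Ccnd1) had levels of 10.49, 9.87, 10.19 and 10.04 in juvenile cells, against 7.98, 7.89, 7.09 and 7.02 in fetal cells and a log2 difference of 2.66 ± 0.34 (adjusted p = 3.17e-07). Cyclin E2 (Ccne2) rose by 1.70 and its kinase Cdk2 by 1.43, for which 3 other probes gave 0.35, 0.94 and 0.32. The phosphatase Cdc25a fell by 1.42 on the log2 scale. Cyclin D3 (Ccnd3), named after its values were seen, was not called at -0.30. A probe of Ccnd3 detected on all 8 arrays gave -1.86, and one detected on none gave -0.02. Of 7 measured inhibitors of cyclin-dependent kinases, 3 fell and none rose, beside 10.5% and 14.2% of all genes. Cdkn1a, which encodes p21, had a mean level of 5.58 ± 0.39 in juvenile cells, against 7.70 ± 0.12 in fetal cells (SD, n = 4 each) and a log2 difference of -2.11 ± 0.28 (adjusted p = 5.76e-07). Cdkn1b was undetected on the juvenile arrays and at least 1.95-fold lower in juvenile cells. The imprinted inhibitor Cdkn1c, or p57, had levels of 9.27, 9.25, 9.53 and 9.38 in juvenile cells, against 10.44, 10.05, 11.16 and 10.97 in fetal cells, a log2 difference of -1.30 ± 0.20 (adjusted p = 4.73e-06). Cdkn2a was not called (log2 difference 0.01, adjusted p = 9.52e-01), although a second probe gave 1.24.

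**Figure D4:**
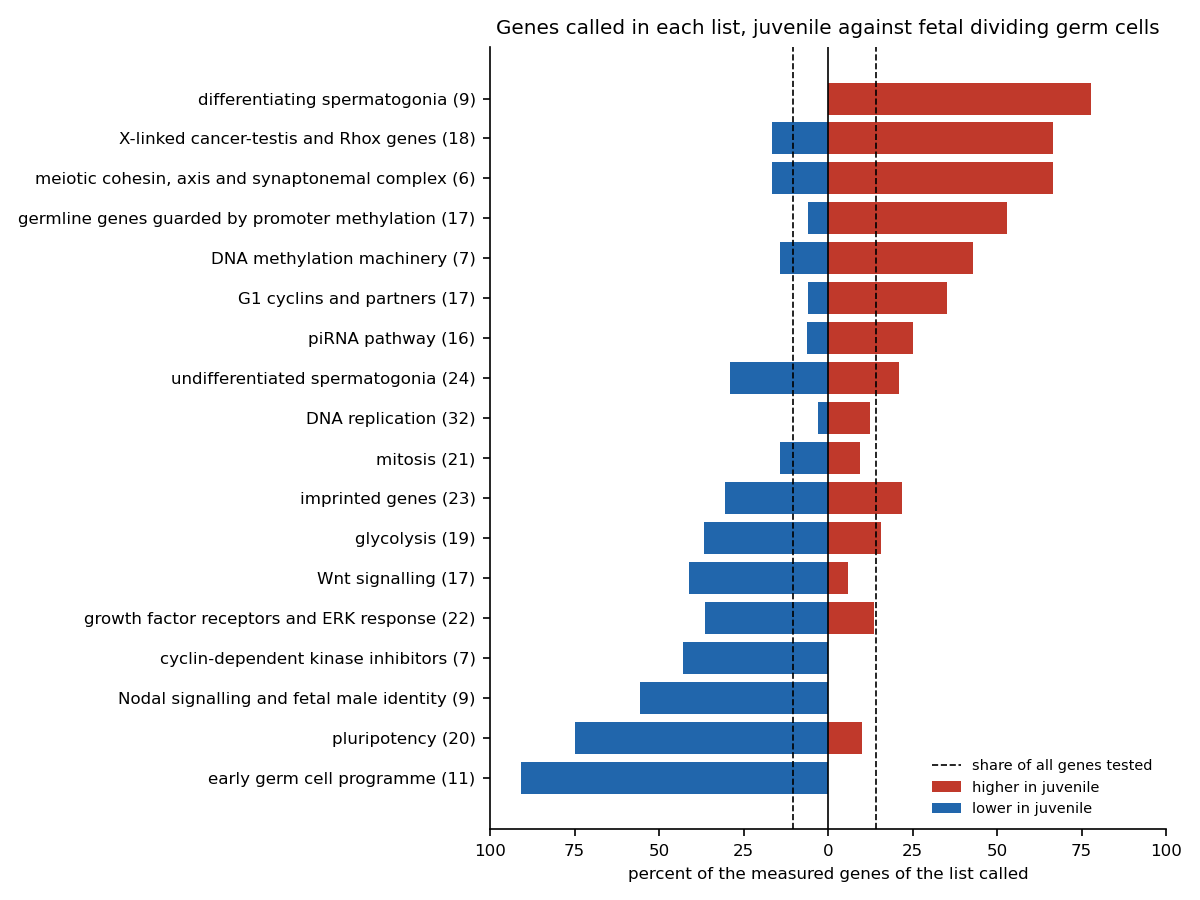
Percent of the measured genes of each list (number in brackets) that were called higher (red, right) or lower (blue, left) in juvenile than in fetal cells, with the share of all genes tested as dashed lines. Differentiating spermatogonia stand at the top with 7 of 9 higher and the early germ cell programme at the bottom with 10 of 11 lower. Mitosis lies near the shares of all genes, and DNA replication (4 of 32 higher, 1 lower) lies below the share of lower genes.

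Both the maintenance and a new-methylation enzyme were higher in juvenile cells. Of 7 measured genes of DNA methylation, 3 rose and 1 fell, beside 14.2% and 10.5% of all genes. Dnmt3b, an enzyme of new methylation, had levels of 12.48, 12.52, 12.53 and 12.48 in juvenile cells, against 8.87, 8.94, 9.32 and 8.87 in fetal cells. Its log2 difference was 3.50 ± 0.11 (adjusted p = 1.69e-18), with an SD of 0.03 among juvenile and 0.22 among fetal arrays. Uhrf1, which brings the maintenance enzyme to replicated DNA, had levels of 11.73, 11.82, 11.73 and 11.92 in juvenile cells, against 9.75, 9.98, 9.52 and 9.99 in fetal cells and a log2 difference of 1.99 ± 0.13 (adjusted p = 4.79e-12), while a second probe was detected on none of the 8 arrays. The maintenance enzyme Dnmt1 had levels of 10.81, 10.85, 10.85 and 11.05 in juvenile cells, against 10.01, 10.01, 9.29 and 9.59 in fetal cells and a log2 difference of 1.17 ± 0.13 (adjusted p = 2.55e-08). The juvenile arrays were above all fetal arrays for each of these. Mbd3, of the NuRD repressor complex, fell by 1.41 on the log2 scale. Dnmt3a, a reference gene, was not measured.

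Of 26 measured Polycomb and Trithorax genes, 6 rose and 5 fell, beside 14.2% and 10.5% of all genes, with a median of 0.02. Ezh2, the H3K27 methyltransferase, had levels of 7.63, 7.25, 6.87 and 7.08 in juvenile cells, against 10.73, 10.74, 9.66 and 9.54 in fetal cells and a log2 difference of -2.96 ± 0.12 (adjusted p = 4.09e-16), while a second probe, detected on 1 of the 8 arrays, gave -0.43. Its core partner Eed had levels of 10.28, 10.32, 10.01 and 10.10 in juvenile cells, against 7.98, 8.87, 8.40 and 8.48 in fetal cells and a log2 difference of 1.74 ± 0.27 (adjusted p = 5.33e-06). Cbx8, a reader of H3K27 methylation, rose by 2.73. The X-linked H3K27 demethylase Kdm6a fell by 1.80 on the log2 scale. Of 16 H3K9 methylation and demethylation genes, 1 rose (Ehmt2, 1.17) and 3 fell, beside the same shares of all genes.

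Signalling genes moved unevenly. Of 22 growth factor receptors and ERK response genes, 8 fell and 3 rose, beside 10.5% and 14.2% of all genes. Dusp4, a phosphatase that switches off ERK, had levels of 4.87, 4.52, 4.40 and 4.63 in juvenile cells, against 10.19, 10.11, 9.04 and 8.76 in fetal cells. It was undetected on the juvenile arrays and at least 19.3-fold lower in juvenile cells (adjusted p = 6.99e-17). The ETS factor Etv4 fell by 2.29 on the log2 scale, whereas the early response factors Egr1, Egr2 and Egr4 rose. For Egr4 the E13.5 levels were near the juvenile ones, as given above. Egr2 was undetected on the fetal arrays and at least 3.29-fold higher in juvenile cells, and Egr1 had a log2 difference of 2.20.

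Of 15 BMP and Id genes, 4 fell and 2 rose, beside 10.5% and 14.2% of all genes. The ligand Bmp4 had levels of 4.78, 5.25, 4.92 and 4.94 in juvenile cells, against 9.69, 9.67, 10.26 and 9.53 in fetal cells and a log2 difference of -4.82 ± 0.23 (adjusted p = 7.17e-15). It was detected on 1 of 4 juvenile arrays. The receptor-regulated Smad1 rose by 2.83 on its brightest probe, while a probe detected on all 8 arrays gave 1.39 and one detected on 2 gave -0.15. Of 17 Wnt genes 7 fell and Tcf7l2 (1.67, named after its values were seen) alone rose, with a median of -0.75. Sp5, a direct target of Wnt signals, had levels of 6.62, 7.37, 6.86 and 6.79 in juvenile cells, against 9.31, 9.42, 10.13 and 10.35 in fetal cells and a log2 difference of -2.89 ± 0.25 (adjusted p = 3.43e-10). The receptor Fzd7 fell by 2.78 on the log2 scale. Of 15 retinoic acid genes, 3 rose and 2 fell, near the shares of all genes. Besides Crabp1, the carrier Rbp4 was undetected on the fetal arrays and at least 1.68-fold higher in juvenile cells, and the receptor Rara was undetected on the juvenile arrays and at least 1.93-fold lower in juvenile cells.

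Imprinted genes moved both ways, with 5 of 23 higher and 7 lower, beside 14.2% and 10.5% of all genes. Grb10, an adaptor that restrains growth factor receptors, had levels of 10.46, 10.37, 10.69 and 10.54 in juvenile cells, against 7.75, 7.21, 6.77 and 7.02 in fetal cells and a log2 difference of 3.33 ± 0.30 (adjusted p = 6.29e-10). Its arrested mean of 12.39 was above both phases. Rasgrf1, a Ras exchange factor, was undetected on the fetal arrays and at least 1.55-fold higher in juvenile cells, and its arrested mean was 9.31. Peg3, a zinc finger protein expressed from the paternal allele, was undetected on the juvenile arrays and at least 3.65-fold lower in juvenile cells. Snrpn, of the paternally expressed Prader-Willi region, had a mean level of 8.44 ± 0.22 in juvenile cells, against 10.89 ± 0.12 in fetal cells (SD, n = 4 each) and a log2 difference of -2.45 ± 0.16 (adjusted p = 1.57e-12). Igf2 was not called (log2 difference 0.04, adjusted p = 9.27e-01).

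Metabolic genes changed member by member. Of 19 glycolysis genes 7 fell and 3 rose, beside 10.5% and 14.2% of all genes. Aldolase C (Aldoc) had levels of 9.20, 9.12, 9.59 and 9.36 in juvenile cells, against 4.81, 5.28, 5.55 and 5.59 in fetal cells and a log2 difference of 4.01 ± 0.31 (adjusted p = 4.23e-11). It was detected on 1 of 4 fetal arrays. The glucose transporter Slc2a3 had levels of 7.48, 7.94, 7.76 and 7.54 in juvenile cells, against 9.62, 9.65, 9.81 and 9.95 in fetal cells and a log2 difference of -2.08 ± 0.25 (adjusted p = 1.46e-07). Pfkl, a phosphofructokinase, and Tpi1, triosephosphate isomerase, fell by 2.27 and 1.78 on the log2 scale, although a second Pfkl probe gave -0.30. Gapdh, named after its values were seen, stood at 12.73 ± 0.06 in juvenile and 12.75 ± 0.08 in fetal cells (SD, n = 4 each). Of 43 oxidative phosphorylation genes, 4 rose and 3 fell, beside 14.2% and 10.5% of all genes.

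Of 19 apoptosis genes 4 rose and 1 fell, beside 14.2% and 10.5% of all genes. The BCL-2 family killers Bok and Bik rose by 2.36 and 2.27, and Pmaip1, or Noxa, fell by 2.52. A second probe gave 0.73 for Bok and -0.66 for Pmaip1. Of 23 adhesion and migration genes, 7 fell and 4 rose, beside 10.5% and 14.2% of all genes. Pecam1, a surface protein of endothelium and of early germ cells, had levels of 4.57, 4.51, 4.97 and 4.60 in juvenile cells, against 9.53, 9.62, 8.16 and 7.88 in fetal cells. It was undetected on the juvenile arrays and at least 11.7-fold lower in juvenile cells (adjusted p = 3.48e-16). E-cadherin (Cdh1) fell by 2.20 on the log2 scale.

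Other genes among the 15 largest rises had varied roles. The metallothionein Mt1, which binds zinc and other metals, had levels of 13.59, 13.73, 13.79 and 13.79 in juvenile cells, against 8.39, 7.97, 8.36 and 7.79 in fetal cells. Its log2 difference was 5.60 ± 0.22 (adjusted p = 8.63e-17), and the arrested mean of 13.50 was near the juvenile level. Clic6, of a chloride channel family, was undetected on the fetal arrays and at least 20-fold higher in juvenile cells. Radx, an X-linked protein that binds single-stranded DNA at replication forks, had levels of 10.24, 10.42, 10.22 and 10.43 in juvenile cells, against 4.72, 4.49, 5.11 and 5.52 in fetal cells. No fetal array detected it and it was at least 24.6-fold higher in juvenile cells (adjusted p = 8.76e-20). Tsc22d3, an X-linked glucocorticoid-induced factor, rose by 4.90 on its brightest probe, and its other probe was detected on none of the 8 arrays. The deacetylase Hdac6 rose by 4.53, the secreted protein reelin (Reln) by 4.26, Prps1, of nucleotide synthesis, by 3.90, and the cyclin-like Ccno by 3.81. In arrested cells the mean was nearer the juvenile level for 10 of the 15 largest rises, and for 761 of all 1557 higher genes.

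Among the 15 largest falls not yet described, the lipase Liph had levels of 4.41, 4.74, 4.77 and 4.34 in juvenile cells, against 11.07, 10.95, 11.49 and 11.28 in fetal cells. It was undetected on the juvenile arrays and at least 61.6-fold lower in juvenile cells (adjusted p = 1.23e-19). The vesicle adaptor subunit Ap3b2 was undetected on the juvenile arrays and at least 33.8-fold lower in juvenile cells, and Kndc1, an exchange factor for Ras proteins, was so too and at least 22.6-fold lower in juvenile cells. Gtsf1l, a paralogue of a piRNA factor, had levels of 4.31, 4.29, 4.30 and 4.35 in juvenile cells, against 8.31, 8.11, 10.26 and 10.13 in fetal cells, undetected on the juvenile arrays and at least 15.4-fold lower in juvenile cells. The E13.5 arrays were above the E12.5 arrays for Gtsf1l. In arrested cells the mean was nearer the juvenile level for 11 of the 15 largest falls, and for 632 of all 1149 lower genes.

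Genes of Sertoli cells, the somatic cells that surround germ cells in the tubule, varied between juvenile arrays. Of 19 measured markers 8 rose and 2 fell, Rhox5 above among them, beside 14.2% and 10.5% of all genes. Their summed linear level was 2670 to 15835 on the juvenile arrays, against 5140 to 8734 on the fetal arrays. Cldn11, a tight junction protein, had levels of 8.17, 10.32, 9.63 and 11.42 in juvenile cells, against 7.14, 7.01, 6.47 and 6.41 in fetal cells and a log2 difference of 3.13 ± 0.37 (adjusted p = 1.04e-07). The secreted protein clusterin (Clu) had levels of 7.70, 9.99, 9.09 and 10.86 in juvenile cells, against 7.46, 7.76, 7.37 and 7.31 in fetal cells, which overlapped. For both genes, replicate 2 was higher than replicate 1 at each juvenile age. Defb36, a beta-defensin among the 15 largest rises, varied the same way, with levels of 6.68, 8.45, 8.42 and 10.06 in juvenile cells, against 4.35, 4.44, 4.89 and 4.60 in fetal cells, and no fetal array detected it. Of the 19 markers, 16 were detected on at least 1 juvenile array and 12 on at least 1 fetal array. Sox9 was detected on 1 of 4 juvenile arrays and no fetal array, and Amh on no juvenile array and 2 of 4 fetal arrays, whereas Wt1, another Sertoli cell factor, was detected on all 8. With the replicate 1 arrays of 8 and 10 dpp alone, a setting chosen after seeing these values, 2700 genes were called, and the log2 differences were 2.14 for Cldn11, 0.92 for Clu and 2.99 for Defb36, against 3.13, 1.94 and 3.84 with all 4. Clu was then no longer called (adjusted p = 1.06e-01).

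**Figure D5:**
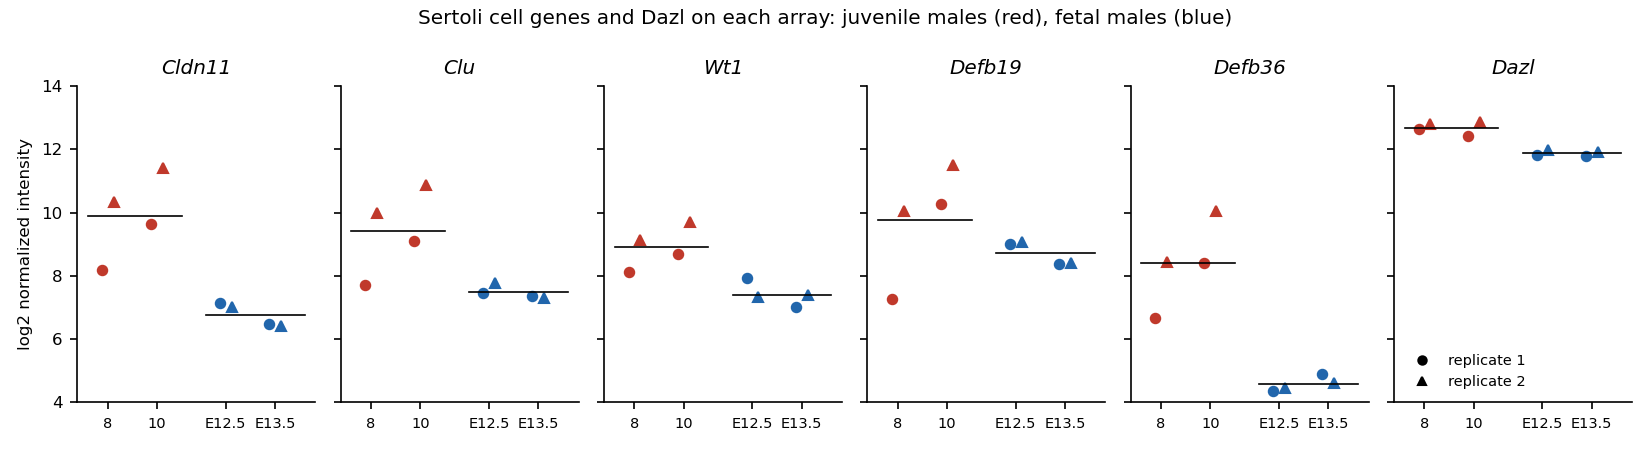
Log2 normalized intensity (vertical axis) of 5 genes of Sertoli cells or varying with them and of the germ cell gene Dazl on each array, juvenile in red on the left and fetal in blue on the right, with replicate 1 as circles and replicate 2 as triangles and phase means as lines. Replicate 2 is higher than replicate 1 at 8 and at 10 dpp for Cldn11, Clu, Wt1, Defb19 and Defb36. The same order holds for Dazl, which stays between 12.41 and 12.86 on the juvenile arrays.

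Markers of other cells differed in part. Of 14 peritubular and mesenchymal genes 2 rose and none fell, beside 14.2% and 10.5% of all genes. Their summed level was 1101 to 1732 on the juvenile arrays, against 718 to 1072 on the fetal arrays. Sparc of this list was not called, while a second probe, detected on all 8 arrays, gave -1.83. Acta2, smooth muscle actin, had levels of 8.61, 8.80, 8.28 and 9.02 in juvenile cells, against 5.46, 4.55, 6.37 and 6.38 in fetal cells, with a log2 difference of 2.99, while 3 other probes gave 0.76, 0.23 and 1.38. Of 9 endothelial markers 1 rose and 2 fell, Pecam1 among them, beside 14.2% and 10.5% of all genes. Their summed level was 953 to 1238 on the juvenile arrays, against 859 to 1353 on the fetal arrays. None of 3 Leydig cell markers was called. Of 5 macrophage markers, none was detected on a juvenile array. Of 8 erythroid markers 2 fell, beside 10.5% of all genes. Their summed level was 377 to 614 on the juvenile arrays, against 973 to 3744 on the fetal arrays. The embryonic globin Hbb-y had levels of 4.49, 4.61, 4.52 and 4.38 in juvenile cells, against 10.50, 10.59, 8.93 and 6.43 in fetal cells, undetected on the juvenile arrays and at least 14.5-fold lower in juvenile cells, and the adult alpha globin Hba-a1 fell by 2.26 on the log2 scale. The part of these cells in the differences above was not tested.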

How the data were processed

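The values were 1-colour BeadChip intensities. The deposited table held the authors' mean bead intensity per probe, not normalized between arrays, with a detection p-value per probe, per the file headers. BeadStudio 3.2, RMA and lumi are named in the submitters' processing notes. Background subtraction is not given in the sources used here. A second deposited table held log2 values that the authors had normalized between arrays (median 3.20 in each column). Its centring is not stated, and it served as an alternative.

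Intensities of 44 arrays were processed with limma 3.58.1 (R 4.3.3) by neqc, which infers background from the detection p-values, adds an offset of 16, quantile normalizes and takes log2. Of 25697 probes, 23978 had 1 gene symbol and 1719 had none. Named probes detected on at least 2 of 44 arrays were kept (15127), and the brightest of each gene was used, giving 10935 genes. Means of 23 groups were fitted with lmFit and eBayes, and contrasts were tested two-sided with Benjamini-Hochberg adjustment over all genes. The fit was tested on simulated data. The number of arrays limits the precision.

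Named genes were the 15 largest rises and 15 largest falls whose arrays did not overlap, up to 5 called members of each list (with uncalled members where under 4 were called) and a set of reference genes. Of the reference genes, Dnmt3a, Mki67 and H19 were not measured. Further genes were chosen after their values were seen: the Smad and Acvr2b genes of the Nodal list, Sall4, Lin28a, Tbx3, Tex19.1, Mael, Sox9, Amh, Wt1, Defb19 and those so marked in the text. The members and lists were chosen with earlier results of these data known. Replicate numbers were not taken to pair the arrays, since deviations of same-numbered arrays correlated at 0.02 to 0.12 in 5 pairs of groups. Between 8 and 10 dpp the correlation was 0.33. Alternatives covered background correction, scaling, filters, probes, fits and single arrays. Promoter windows came from RefSeq (GRCm38.p6). No genome was used.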

Additional observations from a re-analysis of the deposited data

Results flagged for a closer look

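For 37 genes named above the 2 fetal days themselves differed, so that the change against juvenile cells had a different size at E12.5 and at E13.5. Each passed the limma test of E13.5 minus E12.5 (adjusted p under 0.05 and at least 2-fold), which is also the test of the difference between the 2 changes. Values are log2 differences, E13.5 minus E12.5, with 2 arrays a day.

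Of these, 24 were higher at E13.5: Dnmt3l (4.53), Sohlh1 (3.97), Taf7l (3.76), Upp1 (3.75), Egr4 (3.42), Nanos2 (3.39), Usp9y (3.13), Tex101 (2.68), Id4 (2.57), Neurog3 (2.53), Nxf2 (2.44), Tktl1 (2.08), Gtsf1l (1.99), Prps1 (1.91), Hdac6 (1.91), Reln (1.75), Bik (1.72), Nanos3 (1.46), Dpep3 (1.46), Henmt1 (1.36), Ret (1.33), Ccno (1.12), Tdrd1 (1.06) and Rec8 (1.05). The other genes, 13 in number, were lower at E13.5: Hbb-y (-2.86), Rhox9 (-2.80), Rhox6 (-2.60), Etv4 (-1.90), Cdc6 (-1.83), Amh (-1.75), Pecam1 (-1.55), Foxh1 (-1.25), Dusp4 (-1.25), Ezh2 (-1.13), Lefty2 (-1.11), Pfkl (-1.07) and Lhx1 (-1.03).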

How the results depend on the processing

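Calls between juvenile and fetal cells (2706) numbered 1270 with no background correction, 1789 with an offset of 50, 5489 under median scaling, 5634 with no fold threshold and 637 at 4-fold. They were 2452 to 3726 under the other planned settings, of which leaving out 1 array gave 2681 to 2788. Calls between E13.5 and E12.5 (781) numbered 260, 443, 470 and 2218 with no background correction, the larger offset, cyclic loess and median scaling, and 633 to 691 with 1 array left out. Fetal minus arrested (3993) gave 2131 with no background correction and 2616 with cyclic loess. Juvenile minus arrested (4054) gave 2128 with no background correction and 6649 with median scaling. Between 10 and 8 dpp (0) there was 1 call with no background correction, the larger offset, the authors' values or a variance trend, 12 with array weights, 30 with median scaling and 56 with cyclic loess. Leaving out 1 array there gave 0 to 8, with the 8 calls made without 8 dpp replicate 2. With the replicate number as a replicate block, calls were 2706 between juvenile and fetal cells, 0 between 10 and 8 dpp, 795 between the fetal days, and 3994 and 4054 against arrest. Of 4053 values of named genes under alternatives, not counting genes named for another probe alone, 3906 kept direction and side of the threshold. Median scaling, which moved the median of all genes, reversed Cdc25a (0.18), Cdkn1c (0.20), Hormad2 (0.04), Lin28a (1.38), Mbd3 (0.14), Mnd1 (0.00), Nanos3 (0.30), Smad2 (1.07) and Spo11 (0.13). Defb19 was -0.06 with 8 dpp alone, Dnmt3l 2.12 against E12.5 alone and Upp1 -0.62 against E13.5 alone. Against E13.5 alone 7 named genes kept direction but were no longer called, and against E12.5 alone 4 did. Apart from the thresholds, the cause of these shifts was not tested. With 2 arrays an age, juvenile arrays brighter than fetal ones, and genes near background known only as bounds, the sizes of low genes are the least certain.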
